A study of Rattus norvegicus with 13 samples.

Results

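The red cell miRNAs miR-451-5p, miR-144-3p, miR-144-5p and miR-486 were followed in small RNA libraries from the kidneys of 13 rats. They were taken by name from the rat mature miRNAs of the deposited count table, and all 4 were among its 460 entries. All rats were female WAG/RijCmcr animals, an inbred strain, aged 11 to 12 weeks at the start, and all kidneys were taken on day 35. Control rats (n = 4) received 0 Gy and no lisinopril. Irradiated rats (n = 4) received 13 Gy of X-rays to the body at 1.75 Gy per minute with a hind limb kept outside the field, so that some bone marrow was spared. A further group of irradiated rats (n = 5) received the same exposure and, from day 7 on, had lisinopril in their water at about 24 mg per square metre daily. Lisinopril lowers blood pressure by blocking the enzyme that makes angiotensin II. The protocol also names saline injections and the antibiotic enrofloxacin as supportive care, without saying which groups received them. The protocol does not say whether blood was flushed from the kidneys before RNA was extracted.

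These miRNAs are classic products of the red cell lineage. miR-144 and miR-451 are cut from a shared primary transcript that the erythroid factor GATA1 switches on, and miR-451 is needed for full red cell maturation. miR-451 is unusual in that its precursor is sliced by Argonaute 2 instead of Dicer. miR-486 is made from an intron of Ank1, the gene of the red cell membrane protein ankyrin 1, and it is also made in striated muscle. Circulating red cells have no nucleus but keep large amounts of miR-451 and miR-486, which is why both serve as signs of haemolysis in plasma.

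Mature sequences were looked up by name, and the way reads were assigned to miRNAs is not stated. RefSeq sequences of the GRCr8 build matched 3 of the 4 miRNAs by name. They are given 5′ to 3′ with the seed, bases 2 to 8, in capitals, because the seed decides which messages a miRNA can bind. miR-101a-3p is added for comparison.
rno-miR-451-5p: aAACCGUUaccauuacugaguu
rno-miR-144-3p: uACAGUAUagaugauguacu
rno-miR-144-5p: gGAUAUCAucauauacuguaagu
rno-miR-101a-3p: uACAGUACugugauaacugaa
Each of the first 3 seeds occurred in only 1 of the 693 mature rat miRNAs of that table, so that the arms of the shared transcript carry 3 different seeds. miR-144-3p shares bases 2 to 7, but not the whole seed, with miR-101a-3p and miR-101b-3p.

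The hairpins are shown because they place both miRNAs side by side on chromosome 10 and show where miR-451-5p lies in its precursor. Mir144 lies at chr10:63459397-63459479 and Mir451a at chr10:63459569-63459640 of GRCr8, both on the plus strand and 89 bases apart. Capitals mark the mature members.
Mir144: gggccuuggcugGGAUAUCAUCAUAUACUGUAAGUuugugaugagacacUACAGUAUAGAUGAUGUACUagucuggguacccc
Mir451a: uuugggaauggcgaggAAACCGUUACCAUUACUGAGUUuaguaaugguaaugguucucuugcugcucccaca
In the structure of lowest energy predicted by RNAfold, the arms of miR-144 lay on opposite sides of the Mir144 stem, outside its loop of 6 bases. The miR-451-5p of 22 bases instead ran up the stem for 18 bases and through all 4 bases of the Mir451a loop.

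The libraries held 1194175 to 11095939 counts over rat mature miRNAs. Levels are given as CPM (counts scaled to a common library total) with library sizes adjusted by TMM, a method that lines libraries up on the bulk of their miRNAs. Control library 2 was the shallowest, and 3 counts in it corresponded to 3.19 CPM, against 0.289 to 0.561 CPM elsewhere. The 4 miRNAs together held 0.0715% to 0.463% of rat mature counts. Kidney miRNAs marked the tissue in every library: miR-10a-5p was at 251361 to 562055 CPM, the tubular miR-192-5p at 34750 to 95973 CPM and miR-204-5p at 169 to 288 CPM. Intervals of counts below are exact Poisson intervals at 95% and cover counting error only.

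miR-451-5p differed by 141 times between the highest and the lowest of the 13 kidneys, and most of that range was present inside single groups. In control libraries 1 to 4 it was at 71.7, 20.2, 101 and 15.5 CPM. In irradiated libraries 1 to 4 it was at 219, 21.0, 2.23 and 73.8 CPM. In lisinopril libraries 1 to 5 it was at 161, 5.75, 1.55, 69.6 and 142 CPM. Each group therefore held kidneys with high and with low values, and the 3 groups overlapped. Between rats the highest exceeded the lowest by 6.51 times among controls, 98.1 times among irradiated rats and 104 times among lisinopril-treated rats; whether the spread itself differs between groups was not tested. The lowest values rested on 16 counts in irradiated library 3 (1.28 to 3.63 CPM) and 15 counts in lisinopril library 3 (0.868 to 2.56 CPM). These intervals lie below the interval of every library outside this pair, and lisinopril library 3 had 10267994 counts, more than all but lisinopril library 4.

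**Figure D1:**
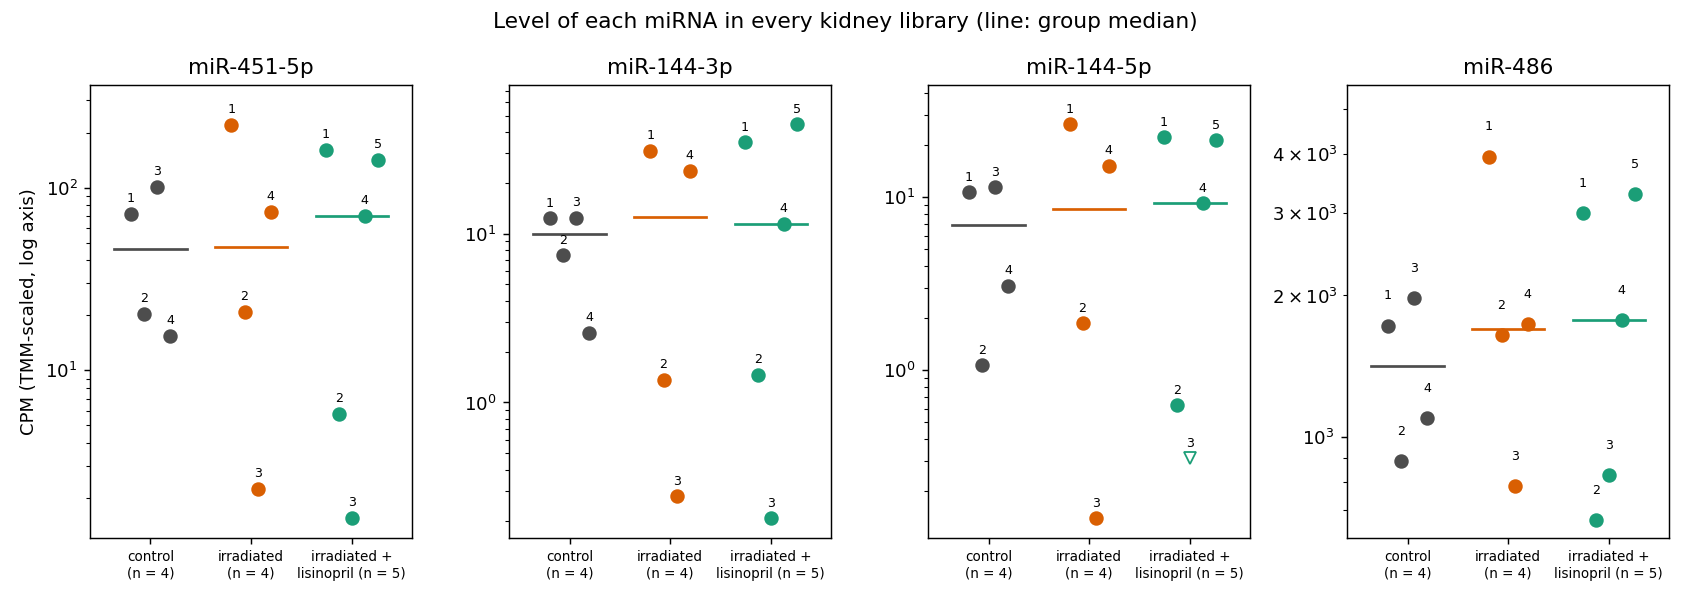
CPM of miR-451-5p, miR-144-3p, miR-144-5p and miR-486 (log axes, a separate scale per panel) in each kidney library, numbered by replicate, for the control (n = 4), irradiated (n = 4) and lisinopril (n = 5) groups, with a line at the group median. The open triangle stands at the CPM of 3 counts for lisinopril library 3, where miR-144-5p had 0 counts; high and low kidneys occur in each group, and miR-486 stays between 666 and 3952 CPM.

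miR-144-3p, the arm of miR-144 with the seed close to that of miR-101, followed the same kidneys at a lower level. Control libraries 1 to 4 had 12.4, 7.45, 12.4 and 2.59 CPM. Irradiated libraries 1 to 4 had 31.0, 1.36, 0.279 and 23.6 CPM, and lisinopril libraries 1 to 5 had 34.7, 1.46, 0.207, 11.4 and 44.6 CPM. The lowest 2 were again irradiated library 3 and lisinopril library 3, with 2 counts each, which allows 0.0338 to 1.01 CPM and 0.025 to 0.747 CPM. The highest value, in lisinopril library 5, was above the highest control by more than the counting interval (40.3 to 49.3 CPM against 10.4 to 14.8 CPM in control library 3).

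miR-144-5p, the opposite arm of the same hairpin, gave the same picture. Its levels were 10.7, 1.06, 11.4 and 3.07 CPM in control libraries 1 to 4. They were 26.4, 1.86, 0.14 and 15.2 CPM in irradiated libraries 1 to 4, and 22.2, 0.627, 0, 9.22 and 21.3 CPM in lisinopril libraries 1 to 5. The 0 in lisinopril library 3 allows up to 0.381 CPM, and 3 counts in that library correspond to 0.31 CPM. Control library 2 and irradiated library 3 had 1 count each, so that control library 2 could lie anywhere from 0.0269 to 5.93 CPM.

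miR-486 was by far the most abundant of the 4 and varied least, by 5.93 times over all kidneys. In control libraries 1 to 4 it was at 1725, 889, 1979 and 1098 CPM. In irradiated libraries 1 to 4 it was at 3952, 1650, 787 and 1736 CPM, and in lisinopril libraries 1 to 5 at 2992, 666, 828, 1777 and 3283 CPM. The lowest 3 kidneys were lisinopril library 2, irradiated library 3 and lisinopril library 3, which are also the lowest 3 for miR-451-5p. Unlike miR-451-5p and miR-144, miR-486 did not approach 0 in them: its smallest count was 836, in the shallow control library 2.

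Over the 13 kidneys the 4 miRNAs rose and fell together. Pearson's r of log2 CPM, with a prior count of 2, was 0.98 between miR-451-5p and miR-144-5p (Spearman's rho 0.98) and 0.96 between miR-451-5p and miR-144-3p (rho 0.94). In 100000 permutations over the libraries these gave p = 1e-05 for r, the smallest the permutations can give, with an adjusted p = 2e-05 over 6 pairs. Between the arms of miR-144 r was 0.95 (rho 0.95, permutation adjusted p = 3e-05). The pairs with miR-486, which comes from another locus, had r = 0.91 for miR-451-5p (rho 0.95, permutation adjusted p = 2e-05), 0.91 for miR-144-5p (rho 0.94, permutation adjusted p = 3.6e-05) and 0.84 for miR-144-3p (rho 0.88, permutation adjusted p = 0.0005). For rho the adjusted permutation p-values were 3e-05, 3.6e-05 and 0.00018 in the same order, and 3e-05 for each of the pairs without miR-486.

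The covariation was present within groups. On deviations from the group means, with permutations drawn inside groups, r was 0.97 for miR-451-5p with miR-144-3p, 0.98 with miR-144-5p and 0.94 with miR-486, and 0.95, 0.87 and 0.93 for the remaining pairs, with permutation adjusted p-values of 0.00024 to 0.00119. The matching rho values were 0.90 to 0.97, with permutation adjusted p-values of 0.00027 to 0.00033. Without irradiated library 3 and lisinopril library 3, the 2 libraries farthest from the median of miR-451-5p, r over libraries was 0.92, 0.96 and 0.94 for miR-451-5p with miR-144-3p, miR-144-5p and miR-486. It was then 0.89 between the arms of miR-144, 0.79 between miR-144-3p and miR-486 and 0.91 between miR-144-5p and miR-486. The largest gap in miR-451-5p, from 21.0 to 69.6 CPM, left 6 kidneys below and 7 above. With miR-144-5p r was 0.92 below and 0.90 above the gap, with miR-144-3p 0.87 and 0.75, and with miR-486 0.63 and 0.97. Values of a pair come from the same library and share its scaling.

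**Figure D2:**
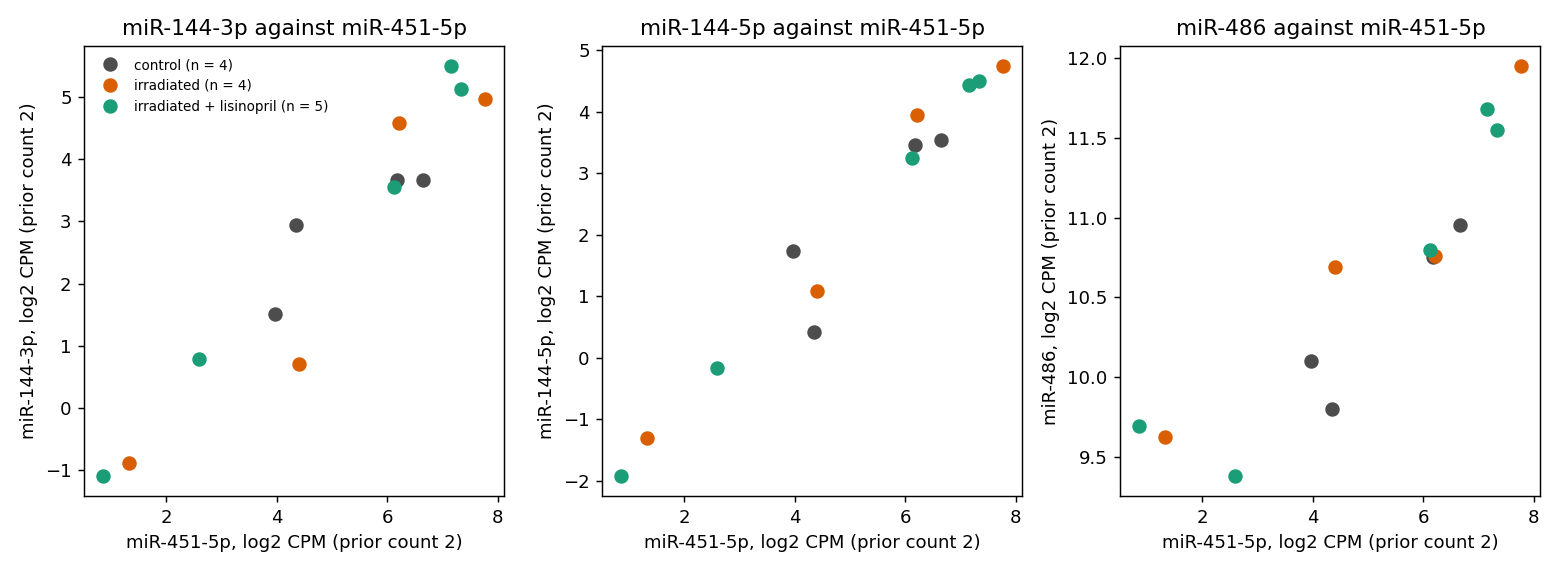
log2 CPM of miR-144-3p, miR-144-5p and miR-486 (vertical axes) against miR-451-5p (horizontal axes), a point per kidney library coloured by group (n = 4, 4 and 5). The points of the 3 groups lie along a common course in each panel, with r = 0.96, 0.98 and 0.91, and miR-486, on an axis of its own, spans the fewest log2 units.

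No relation to depth was detected. The correlation of log2 library total with log2 CPM was r = -0.04 for miR-451-5p, -0.13 for miR-144-3p, 0.09 for miR-144-5p and 0.11 for miR-486, each with a permutation adjusted p = 0.908 over these 4. Spearman's rho was -0.26, -0.20, -0.24 and -0.05, with permutation adjusted p-values of 0.689 for the first 3 and 0.878 for miR-486. Without the 2 libraries whose totals lay farthest from the median, r was -0.13 to -0.08. The labels give no sequencing batch.

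Within the shared transcript, the proportions of the miRNAs varied less than their levels. In the 10 libraries with at least 10 counts of both, miR-451-5p had 3.13 to 15.4 times the counts of miR-144-3p, with a median of 5.88, while miR-451-5p itself ran from 5.75 to 219 CPM in them. The spread of this ratio was 4.91 times, and 2.59 times without irradiated library 2. In the 9 libraries that allow it, miR-144-3p had 0.733 to 2.09 times the counts of miR-144-5p, with a median of 1.18, so that neither arm dominated. The mature forms are 20 to 23 bases long, and the counts were not divided by length. In the same 10 libraries, a comparison chosen after the data were seen, miR-451-5p had 0.00863 to 0.0554 times the counts of miR-486, a spread of 6.43 times. Over all 13 libraries, with the lowest ones included, this ratio went down to 0.00187, a spread of 29.6 times, or 19.5 times without lisinopril library 3. Against miR-23a-3p, which is steady in haemolysed plasma and here lay at 661 to 1084 CPM, it ranged from 0.00202 to 0.331 over 13 libraries, a spread of 164 times, or 106 times without lisinopril library 3, and by 60.2 times in the 10 libraries. These within-library ratios do not depend on the scaling of libraries.

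miR-486 was higher where miR-451-5p was higher, but it stayed abundant where miR-451-5p was almost absent. A least-squares line on the CPM scale over the 13 kidneys, fitted as a description after the data were seen, had an intercept of 788 CPM (SE 102) and a slope of 14.5 CPM of miR-486 per CPM of miR-451-5p (SE 1.06). The kidneys nearest to no miR-451-5p, with 1.55, 2.23 and 5.75 CPM, had 828, 787 and 666 CPM of miR-486. Irradiated library 2 lay farthest above the line, with 1650 CPM of miR-486 at 21.0 CPM of miR-451-5p. Leaving out each library in turn gave intercepts of 703 to 825 CPM and slopes of 13.9 to 15.0.

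**Figure D3:**
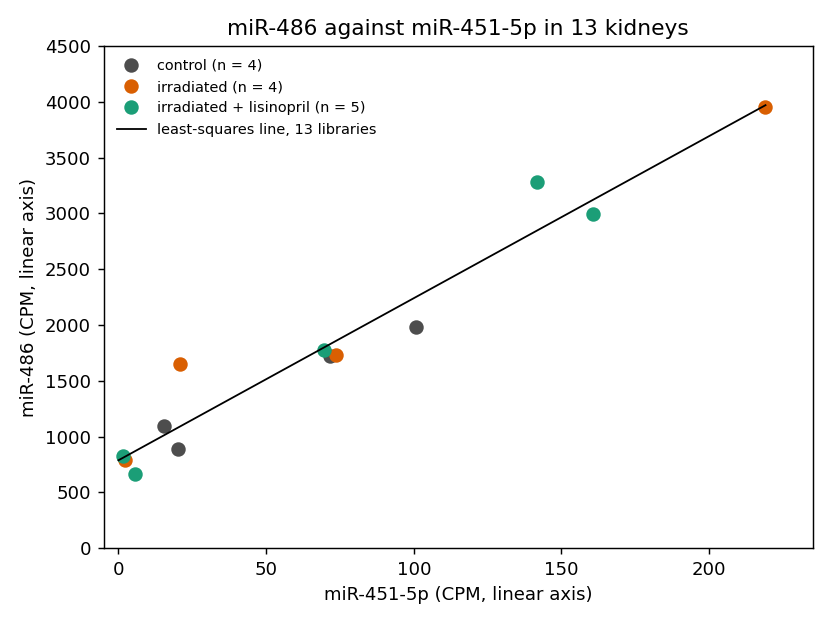
miR-486 against miR-451-5p in CPM on linear axes, a point per kidney library coloured by group (n = 4, 4 and 5), with the least-squares line over the 13 libraries. The line meets the vertical axis at 788 CPM of miR-486 and rises by 14.5 CPM per CPM of miR-451-5p.

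The spread between rats of the same group set these miRNAs apart from most of the 419 tested. The pooled SD within groups of log2 CPM was 2.52 for miR-144-5p, 2.50 for miR-451-5p and 2.46 for miR-144-3p, ranks 1 to 3, against a median of 0.30 over all tested miRNAs. A step of 1 SD corresponded to 5.65 times for miR-451-5p and to 1.23 times for the median miRNA. The next in order was miR-770-5p of the Dlk1-Dio3 cluster at 1.97, followed by the epithelial miR-205 at 1.68. miR-486 ranked 17th with an SD of 0.89, and 6th among the 283 miRNAs that averaged 10 CPM or more. The ranks are a description and were given no test.

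**Figure D4:**
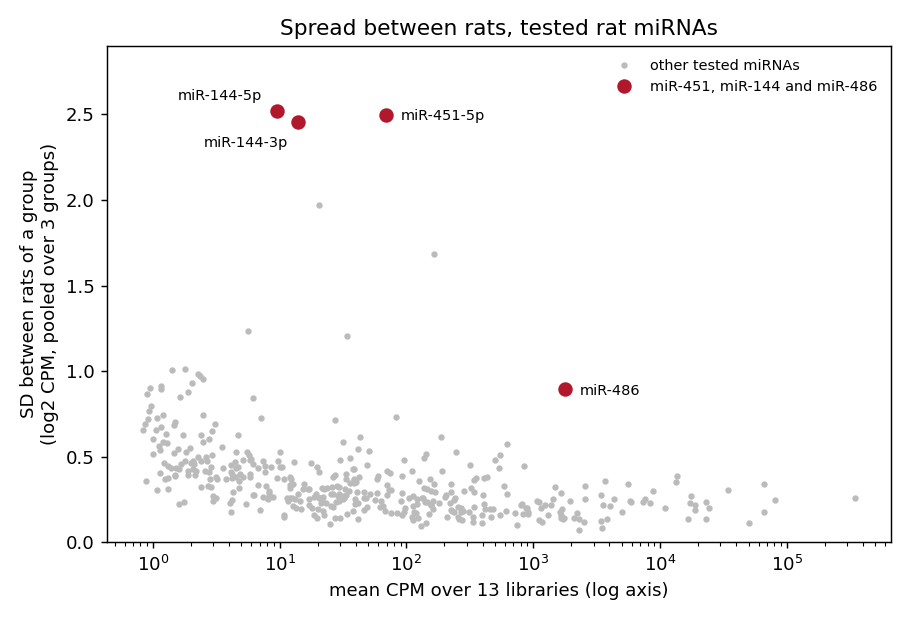
Pooled SD between rats of the same group (log2 CPM) against mean CPM over 13 libraries (log axis) for the 419 tested rat miRNAs, with miR-451-5p, miR-144-3p, miR-144-5p and miR-486 in red. The members of the shared transcript stand at SDs of 2.46 to 2.52, above all other points, and miR-486 at 0.89 stands above miRNAs of similar abundance.

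Irradiation was not followed by a detectable difference in the 4 red cell miRNAs on day 35, and their spread between rats leaves room for large changes in either direction. miR-451-5p averaged 52.0 ± 41.2 CPM in control kidneys (SD, n = 4) and 79.0 ± 98.2 CPM in irradiated kidneys (SD, n = 4), with a log2 fold change of 0.55 (SE 1.17, edgeR adjusted p = 0.807). Its 95% interval ran from -1.95 to 3.06, or from 0.258 to 8.32 times. miR-486 averaged 1423 ± 514 and 2031 ± 1350 CPM, with a log2 fold change of 0.51 (interval -0.58 to 1.60, edgeR adjusted p = 0.559). For miR-144-3p and miR-144-5p the log2 fold changes were 0.63 and 0.52 (edgeR adjusted p = 0.781 and 0.82). The quasi-likelihood test of edgeR, adjusted over the 419 miRNAs, called 0 of the 4, and it called 1.67% of all tested miRNAs (0.477% higher and 1.19% lower). None of the 4 had an unadjusted p under 0.05. DESeq2 called 0 of the 4 and 11.3% of the 326 miRNAs it gave an adjusted p, and limma-voom called 0 of the 4 and 1.67% of all.

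The sign of this difference depended on the scale and on a single rat. The log2 fold change of edgeR compares means of counts and was positive. Mean log2 CPM of miR-451-5p was 4.93 in irradiated and 5.29 in control kidneys, a difference of -0.36 (two-sided exact permutation p = 0.886). Without irradiated library 1, the kidney with the highest miR-451-5p, the log2 fold changes of miR-451-5p, miR-144-3p and miR-144-5p were -0.71, -0.089 and -0.39 and that of miR-486 was -0.00057. For miR-486 the difference in mean log2 CPM was 0.35 (exact permutation p = 0.629). In this design of 4 against 4 the smallest possible permutation p is 0.0286, and after adjustment over 12 tests (4 miRNAs, 3 comparisons) every value was 0.968.

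Adding lisinopril to irradiation gave no detectable difference either. miR-451-5p averaged 75.8 ± 74.2 CPM with the drug (SD, n = 5) against 79.0 ± 98.2 CPM without it, with a log2 fold change of -0.06 (interval -2.41 to 2.29, edgeR adjusted p = 0.991). miR-486 averaged 1909 ± 1203 against 2031 ± 1350 CPM, with a log2 fold change of -0.09 (interval -1.12 to 0.94, edgeR adjusted p = 0.949). miR-144-3p and miR-144-5p had log2 fold changes of 0.41 and -0.02 (edgeR adjusted p = 0.89 and 0.992). Exact permutation p-values of the 4 miRNAs were 0.794 to 0.968. edgeR called 0 of the 4, with 0 at an unadjusted p under 0.05, and 0% of all tested miRNAs were called between these groups. limma-voom called 0 of the 4 and 0.477% of all. DESeq2 gave an adjusted p to 1 of the 4, miR-486 (0.882), and set none for the other 3 and for 253 of all 419 miRNAs; it called 6.63% of the 166 it adjusted. None of the 4 had an unadjusted p under 0.05 in DESeq2. Without irradiated library 1 the log2 fold change of miR-451-5p was 1.19.

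In lisinopril-treated irradiated rats against control rats the pattern was alike in kind. miR-451-5p averaged 75.8 ± 74.2 against 52.0 ± 41.2 CPM (log2 fold change 0.49, interval -1.89 to 2.88, edgeR adjusted p = 0.846). miR-144-3p averaged 18.5 ± 20.1 (SD, n = 5) against 8.71 ± 4.70 CPM (SD, n = 4), the largest log2 fold change of the 12 at 1.04 (interval -1.43 to 3.51, edgeR adjusted p = 0.696). Without lisinopril library 5, the highest for miR-144-3p, it was 0.39. miR-144-5p and miR-486 had log2 fold changes of 0.50 and 0.42 (edgeR adjusted p = 0.846 and 0.719). On mean log2 CPM, miR-451-5p, miR-144-3p and miR-144-5p differed by -0.48, -0.17 and -0.27, with exact permutation p-values of 0.762, 0.873 and 0.905. edgeR, DESeq2 and limma-voom called 0 of the 4, with 0 at an unadjusted p under 0.05 in edgeR. In this comparison edgeR called 6.21% of all tested miRNAs (0.716% higher and 5.49% lower) and limma-voom 4.77%. DESeq2 called 6.97% of the 416 miRNAs it gave an adjusted p. The irradiated and lisinopril groups are compared here with the same 4 control kidneys.

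**Figure D5:**
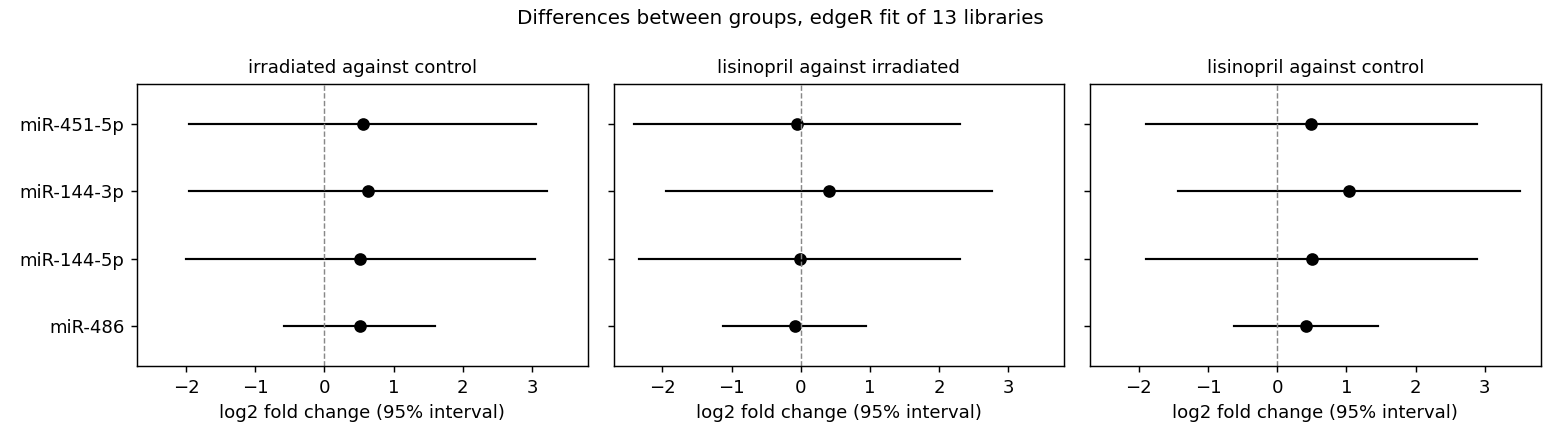
log2 fold changes of the 4 miRNAs with 95% intervals (edgeR fit of 13 libraries) for irradiated against control, lisinopril against irradiated and lisinopril against control. Every interval crosses 0, and those of miR-486 are narrower than those of miR-451-5p, miR-144-3p and miR-144-5p.

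The ratios inside a library did not separate the groups. The log2 ratio of miR-144-3p to miR-144-5p, with 0.5 added to each count, averaged 0.29 ± 0.53 in irradiated kidneys without the drug (SD, n = 4) and was higher by 0.80 with it (n = 5), with an exact permutation p = 0.127. This was the smallest of 12 such p-values (4 ratios, 3 comparisons), and every adjusted value was at least 0.997. The arms of miR-144 had 2 and 0 counts in lisinopril library 3, so that its log2 ratio of 2.32 depends on the added 0.5. In irradiated library 3 they had 2 and 1 counts. Leaving out each library in turn, the difference of 0.80 ranged from 0.50 to 1.00. The log2 ratio of miR-451-5p to miR-23a-3p averaged -4.41 ± 1.35 in control (SD, n = 4), -4.62 ± 2.86 in irradiated (SD, n = 4) and -4.93 ± 3.08 in lisinopril kidneys (SD, n = 5).

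Other miRNAs that are abundant in red cells did not share the range of miR-451-5p. Of 13 listed, 12 were tested, among them miR-16-5p, which restrains cell cycle genes, and miR-92a-3p and miR-363-3p of related clusters. By edgeR 0 of the 12 rose or fell in any of the 3 comparisons, with 1 at an unadjusted p under 0.05 in each. Of all 419 tested miRNAs, 22.2%, 15% and 22.7% had an unadjusted p under 0.05 in irradiated against control, lisinopril against irradiated and lisinopril against control. edgeR called 1.67%, 0% and 6.21% of them after adjustment in the same order, and these shares also apply to the lists below. limma-voom called 0, and DESeq2 called miR-92a-3p between irradiated and control kidneys, where it called 11.3% of the 326 miRNAs with an adjusted p. DESeq2 called no other of the 12, with no adjusted p for 1 of them there and for 4 between lisinopril and irradiated kidneys. Their median log2 fold changes were 0.05, 0.11 and 0.10 for irradiated against control, lisinopril against irradiated and lisinopril against control, against 0.02, -0.02 and 0.05 over all tested miRNAs. miR-16-5p went from 9051 ± 1362 CPM in control (SD, n = 4) to 7267 ± 1205 CPM in irradiated kidneys (SD, n = 4; edgeR adjusted p = 0.236), and miR-92a-3p from 4338 ± 578 to 6787 ± 2456 CPM (edgeR adjusted p = 0.0949). miR-363-3p was at 28.6 ± 1.83 CPM with lisinopril (SD, n = 5), 24.5 ± 2.80 CPM in irradiated and 21.7 ± 0.46 CPM in control kidneys (edgeR adjusted p = 0.0827 against control and 0.407 against irradiated), and miR-185-5p at 30.0 CPM with and 38.4 CPM without the drug (edgeR adjusted p = 0.248). Their correlations with miR-451-5p, on deviations from group means over 13 libraries, ran from -0.62 to 0.47; like all such correlations below they are descriptions without a test. The summed level of the 12 was 27521 to 33848 CPM in control, 30098 to 32617 CPM in irradiated and 30008 to 35250 CPM in lisinopril kidneys. In proportion this range was far narrower than that of miR-451-5p. The largest parts of the sum were miR-191a-5p (8076 to 13071 CPM) and miR-16-5p (5626 to 10839 CPM). The whole range of miR-451-5p, 1.55 to 219 CPM, is small beside them, so the sum cannot show whether a red cell share of these miRNAs varied. miR-101a-3p, which shares bases 2 to 7 with miR-144-3p, lay at 2353 to 5394 CPM with a correlation of 0.39 to miR-451-5p.

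miRNAs that are lowered as red cell precursors mature gave no call by edgeR. Of 6 tested, 0 rose and 0 fell in each comparison, against 3, 1 and 2 at an unadjusted p under 0.05, where the shares of all miRNAs were 22.2%, 15% and 22.7%. limma-voom called 0, and DESeq2 called miR-223-3p between irradiated and control kidneys, where it called 11.3% of the 326 miRNAs with an adjusted p. Between lisinopril and irradiated kidneys 2 of the 6 had no adjusted p in DESeq2. The list had median log2 fold changes of 0.14, -0.18 and -0.14 in the same order. Correlations of the 6 with miR-451-5p went both ways, from -0.56 for miR-24-3p to 0.54 for miR-155-5p, with a median of 0.10. miR-223-3p, a myeloid miRNA, was at 47.2 ± 6.02 CPM in control, 31.1 ± 4.38 CPM in irradiated and 36.7 ± 4.23 CPM in lisinopril kidneys (SD, n = 4, 4 and 5; edgeR adjusted p = 0.065 and 0.153 against control). miR-155-5p, an NF-kB-induced miRNA of immune cells, was at 38.4, 25.7 and 25.2 CPM in the same order (edgeR adjusted p = 0.135 and 0.0971 against control). The partners miR-221-3p and miR-222-3p, which restrain the receptor KIT in red cell precursors, were at 353 and 285 CPM without and 298 and 211 CPM with the drug (edgeR adjusted p = 0.386 and 0.248).

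Markers of other cells in blood and vessels were set beside the red cell miRNAs. The summed level of 8 leukocyte miRNAs was 1916 to 2367 CPM in control, 1721 to 2048 CPM in irradiated and 1378 to 1858 CPM in lisinopril kidneys. The lowest of the 8 was miR-342-5p, at 2.13 to 6.37 CPM, which in control library 2 is below the level of 3 counts. By edgeR 0 of the 8 passed in each comparison, against 3, 0 and 3 at an unadjusted p under 0.05 (22.2%, 15% and 22.7% of all miRNAs). limma-voom called 0. DESeq2 called miR-223-3p and miR-146a-5p lower in irradiated than in control kidneys, where it called 11.3% of the 326 miRNAs with an adjusted p. It called miR-146a-5p lower with lisinopril than in control, where it called 6.97% of the 416 with an adjusted p. Between lisinopril and irradiated kidneys 4 of the 8 had no adjusted p in DESeq2. The list had median log2 fold changes of -0.54, -0.03 and -0.25. miR-146a-5p, a brake on NF-kB signalling, was at 1177 ± 259 CPM in control, 704 ± 121 CPM in irradiated and 683 ± 234 CPM in lisinopril kidneys (edgeR adjusted p = 0.105 and 0.0745 against control). miR-342-3p and miR-342-5p were at 102 and 5.22 CPM without and 85.0 and 4.02 CPM with the drug (edgeR adjusted p = 0.41 and 0.407). Of the 8, 1 had a correlation above 0.5 with miR-451-5p (miR-155-5p, 0.54), against 17 of the 280 miRNAs outside the members that averaged 10 CPM or more. The endothelial miR-126a-3p and miR-126a-5p had correlations of -0.31 and -0.13. miR-126a-3p was at 4229, 3657 and 3684 CPM in control, irradiated and lisinopril kidneys, and miR-126a-5p at 8584, 7074 and 10419 CPM; edgeR adjusted p-values were 0.208 to 0.974, with 1 unadjusted p under 0.05 (miR-126a-5p, lisinopril against irradiated), and DESeq2 and limma-voom called neither. The part of other cell types in the levels of the red cell miRNAs was not tested, and in whole kidney fewer cells of a type and less of a miRNA per cell cannot be told apart.

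Kidney miRNAs gave no call by edgeR either. Of 9 tested, 0 passed in any comparison, against 3, 5 and 2 at an unadjusted p under 0.05 (22.2%, 15% and 22.7% of all miRNAs). limma-voom called 0, and DESeq2 called miR-10a-5p between irradiated and control kidneys, where it called 11.3% of the 326 miRNAs with an adjusted p. The list had median log2 fold changes of -0.24, 0.35 and -0.07. miR-10a-5p averaged 396298 CPM in control and 273033 CPM in irradiated kidneys (edgeR adjusted p = 0.0931), and miR-192-5p 76362 and 51704 CPM (0.134). miR-10b-5p was at 60.0 CPM without and 83.1 CPM with the drug (edgeR adjusted p = 0.261). miR-200b-3p, an epithelial miRNA, was at 3783 CPM in control and 3105 CPM in lisinopril kidneys (edgeR adjusted p = 0.105). miR-196a-5p, a Hox-locus miRNA, was at 306 ± 21.4 CPM in control, 300 ± 38.1 CPM in irradiated and 386 ± 39.4 CPM in lisinopril kidneys (edgeR adjusted p = 0.105 against control and 0.208 against irradiated).

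The miRNAs most like miR-451-5p over the 13 libraries, by r of deviations from the group means among 282 miRNAs that averaged 10 CPM or more, were miR-144-3p (0.97) and miR-486 (0.94). Next came miR-196a-5p (0.74), miR-152-5p (0.61) and miR-182 (0.60). These 3 had pooled SDs of only 0.15, 0.16 and 0.24 log2 units. Those most like miR-486 were miR-451-5p (0.94) and miR-144-3p (0.87), then miR-130a-3p (0.62), miR-182 (0.61) and miR-532-5p (0.61). The step from the red cell miRNAs to the next miRNA was thus from 0.94 to 0.74 for miR-451-5p and from 0.87 to 0.62 for miR-486. At the other end stood miR-1839-3p (-0.68 with both), miR-194-5p (-0.65 with miR-451-5p) and miR-24-3p (-0.66 with miR-486). The 9 kidney miRNAs went both ways with miR-451-5p, from -0.65 for miR-194-5p to 0.74 for miR-196a-5p, with a median of -0.04.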

How the data were processed

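Small RNA libraries were made from total kidney RNA with a TruSeq small RNA kit, per the labels' protocols. The submitters' processing notes name Trim Galore 0.2.5, Bowtie 1.1.1 and the rn4 build; the way reads were assigned to miRNAs is not stated. The authors deposited a table of raw read counts per miRNA, in whole numbers that sum to a different total in each library. Groups came from the group name in the labels. The labels describe no litter, batch or pairing, and p-values of group differences set them against the spread between these animals.

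Of 460 rat mature miRNAs, filterByExpr kept 419, including all 4 members. They were fitted in edgeR 4.0.16 (R 4.3.3) with TMM scaling and glmQLFit over 13 libraries, with a mean per group, and tested with glmQLFTest, with Benjamini-Hochberg adjustment over all 419 and a threshold of 0.05. Intervals of log2 fold changes use the standard error of that fit. Log2 CPM adds a prior count of 2. Permutation tests were two-sided. No replicate was treated as a duplicate of another of its group: over the 22 pairs within groups the chi-square per degree of freedom was at least 84.8. The procedure was tested on simulated counts. Hairpins were folded with RNAfold 2.7.2.

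The members and the lists of miRNAs were chosen with earlier results of these data known. Named from each list were the 2 miRNAs with the smallest p in each comparison and any that passed, and the 5 miRNAs most like miR-451-5p and miR-486. miR-15a-5p of the red cell list was not analysed here, and some miRNAs stand in 2 lists. Alternatives were RLE, library totals, other low-count filters, DESeq2 1.42.0, limma-voom (limma 3.58.1), a robust dispersion, other library sizes, fits of 2 groups, added other-species miRNAs and leaving out each library.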

Additional observations from a re-analysis of the deposited data

How the results depend on the processing

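Where an alternative gave an adjusted p, 0 of the 4 miRNAs passed, with a smallest value of 0.358, and every correlation between members stayed past the threshold, with r from 0.79 to 0.99. miR-144-5p did not reach a mean of 10 CPM and has no value under that filter, and DESeq2 gave miR-451-5p, miR-144-3p and miR-144-5p no adjusted p between lisinopril and irradiated kidneys. Signs of the fold changes did not hold throughout. With limma-voom, which fits log2 CPM, irradiated against control gave log2 fold changes of -0.59 for miR-451-5p, -1.01 for miR-144-3p and -1.05 for miR-144-5p. Lisinopril against control gave -0.71, -0.50 and -1.41. Differences in mean log2 CPM were negative too, at -0.36, -0.61 and -0.17 for irradiated against control and -0.48, -0.17 and -0.27 for lisinopril against control. miR-486 stayed positive in both comparisons, at 0.32 and 0.18 with limma-voom and at 0.35 and 0.22 in mean log2 CPM. The cause of the change in sign was not tested. With other-species miRNAs added, miR-144-5p was at 0.013 between lisinopril and irradiated kidneys. Leaving out each library in turn, irradiated against control ranged from -0.71 to 1.08 for miR-451-5p, from -0.089 to 1.05 for miR-144-3p, from -0.39 to 0.94 for miR-144-5p and from -0.00057 to 0.78 for miR-486. Lisinopril against irradiated ranged from -0.53 to 1.19, from -0.24 to 1.11, from -0.46 to 0.88 and from -0.37 to 0.41 in the same order, and lisinopril against control from 0.022 to 1.04, from 0.39 to 1.37, from 0.057 to 0.86 and from 0.14 to 0.64. Differences in log2 ratios ranged, for miR-451-5p to miR-23a-3p, from -1.22 to 1.01 (irradiated against control), from -1.53 to 0.70 (lisinopril against irradiated) and from -1.21 to 0.47 (lisinopril against control). For miR-451-5p to miR-486 they ranged from -1.31 to 0.11, from -0.85 to 0.79 and from -1.15 to 0.046. For miR-144-3p to miR-144-5p they ranged from -0.59 to 0.26 (irradiated against control), and for miR-451-5p to miR-144-3p from -0.49 to 0.056 (lisinopril against control). No paired analysis was made because the labels describe no pairing. They also give no replicate numbers, and those used here follow the order of the samples. Counts of miR-144 were the lowest among the members: its arms had 0 to 2 counts in irradiated library 3 and lisinopril library 3. In control library 2, the shallowest, miR-144-3p had 7 counts and miR-144-5p had 1.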

Other observations

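A row outside the rat mature miRNAs, named miR-486-3p after human, mouse, macaque and horse, held 8 to 68 counts per library. On the library sizes of the rat miRNAs it was at 5.41 to 8.51 CPM in control, 6.06 to 9.16 CPM in irradiated and 3.21 to 6.84 CPM in lisinopril kidneys. It varied by 2.86 times over the 13 kidneys, against 5.93 times for miR-486. The counts of miR-486 exceeded it by 104.5 times in control library 2 and by 508 times in lisinopril library 1. Over 13 libraries the correlation of its log2 CPM with that of miR-486 was r = 0.38 (permutation p = 0.209) and rho = 0.24 (permutation p = 0.437). On deviations from group means r was 0.50 (permutation p = 0.147), and without the 2 libraries farthest from the median of miR-486 it was 0.09 over libraries. This row was looked at after the data were seen, as a single relation with no adjustment.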
